A study of Mus musculus with 6 samples.

Results

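The secretory cells of the mouse airway were followed through 8 genes: Scgb1a1, Scgb3a1 and Scgb3a2, which encode secretoglobins of club cells, Clca1, a secreted product of goblet cells, Bpifa1, an airway surface protein, Reg3g, an antimicrobial lectin, Pigr, the polymeric immunoglobulin receptor, and Muc1, a membrane mucin. Members were all probe sets for which the platform annotation lists one of these symbols and no other. This gave 7 of 12488 probe sets, for 5 of the 8 genes. Scgb1a1, Pigr and Muc1 had 1 probe set each, and Clca1 and Reg3g had 2 each. No probe set was listed under Scgb3a1, Scgb3a2 or Bpifa1, which were not analysed here. A filter on low signal kept 5 of the 7 probe sets, 1 for each of the 5 genes.

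Lung RNA was hybridised to 6 Affymetrix arrays from 3 kinds of mice: ICR smoked and ICR control, DBA smoked and DBA control, and C57 smoked and C57 control, with 1 array in each group. Smoked mice breathed the smoke of 3 cigarettes per day on 5 days per week over 4 weeks. The sources used here do not state substrain, age, sex or the treatment of control mice. Every sample is numbered mouse 1 in the labels, which do not say whether an array held RNA of 1 animal or of several, so the p-values measure the spread between these arrays only.

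Club cells line the small airways, where they secrete Scgb1a1, metabolise inhaled chemicals and renew the epithelium. Goblet cells secrete gel-forming mucins and Clca1, and their number and output are known to rise with the type 2 cytokine interleukin 13. Pigr carries polymeric immunoglobulin A through the epithelium into the airway lumen, Reg3g binds and kills bacteria and is known to respond to interleukins 17 and 22, and Muc1 is a transmembrane mucin that also signals into the cell. In whole lung RNA these cells are a small share of the sample, and fewer cells of a type and less RNA per cell cannot be told apart.

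In the GRCm38.p6 annotation from RefSeq, Clca1 and Muc1 share a chromosome and the other measured genes each lie on another. Clca1 is on chromosome 3 (145004537 to 145032776), as is Muc1 (89229056 to 89233381). Scgb1a1 is on chromosome 19 (9083642 to 9087956), Reg3g on chromosome 6 (78466269 to 78468874) and Pigr on chromosome 1 (130826684 to 130852249). The RefSeq table of promoter sequences held 3 of the 5 measured genes: Reg3g, Pigr and Muc1. Their promoters are shown so that the region that starts each transcript can be read beside its levels: Reg3g passed a test between strains, and Pigr and Muc1 had the next largest differences. Each sequence runs from 250 bases before the annotated start to 50 bases after it, read on the strand of the gene, from GRCm38.p6. Reg3g is chr6:78468825-78469124 on the minus strand, Pigr is chr1:130826434-130826733 on the plus strand and Muc1 is chr3:89228806-89229105 on the plus strand. Capitals mark matches to the motifs described after them.
Reg3g: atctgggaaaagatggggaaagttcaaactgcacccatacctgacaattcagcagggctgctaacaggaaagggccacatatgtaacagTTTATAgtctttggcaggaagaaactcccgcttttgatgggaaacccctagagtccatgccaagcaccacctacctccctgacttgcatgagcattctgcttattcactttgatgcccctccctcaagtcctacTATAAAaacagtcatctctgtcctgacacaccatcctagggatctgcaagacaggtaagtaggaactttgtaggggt
Pigr: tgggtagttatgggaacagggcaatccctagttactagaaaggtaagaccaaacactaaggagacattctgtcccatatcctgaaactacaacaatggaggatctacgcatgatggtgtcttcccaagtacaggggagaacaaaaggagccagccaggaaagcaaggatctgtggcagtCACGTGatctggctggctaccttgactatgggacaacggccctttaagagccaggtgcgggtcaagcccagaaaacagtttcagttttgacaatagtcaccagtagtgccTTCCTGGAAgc
Muc1: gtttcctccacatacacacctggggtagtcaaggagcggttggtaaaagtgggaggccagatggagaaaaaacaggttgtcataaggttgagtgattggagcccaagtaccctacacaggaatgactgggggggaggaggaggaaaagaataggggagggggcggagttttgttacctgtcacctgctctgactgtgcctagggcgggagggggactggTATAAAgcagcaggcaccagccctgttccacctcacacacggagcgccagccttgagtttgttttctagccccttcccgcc

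Motifs were searched as exact letters on both strands. The TATA box TATAAA was found in 13.6% of 32851 promoters of the same length. Reg3g held it at position -27 from the annotated start and, on the opposite strand, at position -161, where it reads TTTATA. Muc1 held it at position -31, and Pigr did not hold it. The E-box CACGTG, present in 7.15% of the promoters, was in Pigr at position -71. The STAT motif TTCNNNGAA, present in 8.30%, was in Pigr as TTCCTGGAA from position 39. The STAT6 motif (6.95% of promoters) and the forkhead motif TGTTTAC (3.65%) were not in these letters for any of the 3 genes. None of the marked matches overlaps another. The sequences are those of the reference genome and were not read from the mice studied.

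The deposited values are intensities on a linear scale, and their array medians were 25.9 and 52.2 for ICR smoked and ICR control, 84.8 and 68.7 for DBA smoked and DBA control, and 60.5 and 60.1 for C57 smoked and C57 control. The ratio of 3' to 5' signal for beta-actin, a measure of RNA quality, was 4.75 on the ICR smoked array and 1.63 on ICR control. It was 1.66 and 1.46 on DBA smoked and DBA control, and 2.51 and 2.75 on C57 smoked and C57 control. DBA and C57 thus also differed in this ratio, and its part in their differences was not tested. Differences below are on the log2 scale after quantile normalization, which sets all arrays to 1 distribution. Every result that involves ICR rests in part on the ICR smoked array. Because 8.05 was added to each value before taking log2, differences of dim probe sets are understated. Sftpc, the surfactant protein of alveolar type II cells, read 7184 to 10579 and Cyp2f2, a cytochrome P450 of club cells, read 1274 to 6202, so lung and club cell signal was present on every array. The goblet cell genes Muc5ac, a gel-forming mucin, and Spdef, the transcription factor that drives goblet cell differentiation, read at most 4.23 and 19.3 on any array, below the filter. Among the measured members Clca1 is the goblet cell gene.

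Scgb1a1, the most abundant club cell secretory protein, was among the 4 brightest probe sets on every array. Its intensity was 7572 in ICR smoked and 7737 in ICR control lungs, 10324 in DBA smoked and 9625 in DBA control lungs, and 9719 in C57 smoked and 8040 in C57 control lungs. The 2 ICR arrays were the lowest in intensity, yet Scgb1a1 was the brightest probe set on both of them. Quantile normalization gives the brightest probe set of each array the same value, so its normalized difference between the ICR arrays was 0 by construction.

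Clca1 separated DBA from the other strains through 1 of its 2 probe sets. The brighter probe set, with the suffix _r_at, read 14.4 in ICR smoked and 16.9 in ICR control lungs, 520 in DBA smoked and 1095 in DBA control lungs, and 36.9 in C57 smoked and 19.1 in C57 control lungs. Both DBA arrays lay far above all 4 others, and the ICR and C57 readings were dim. Arrays that did not overlap were common: after normalization this held for 52.5% of probe sets in DBA against C57 and 47.9% in ICR against DBA.

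The other Clca1 probe set, with the plain suffix _at, showed no such difference. It read 5.79 in ICR smoked and 14.4 in ICR control, 16.8 in DBA smoked and 16.4 in DBA control, and 11.7 in C57 smoked and 14.9 in C57 control lungs. All 6 values were dim and the probe set did not pass the filter. The annotation gives a source transcript for this plain probe set and none for the _r_at probe set, whose suffix marks a probe set for which the design rules were relaxed. In the fit of DBA against C57 the 2 probe sets differed by 4.24 on the log2 scale. Of 2073 genes with several probe sets, 2, Clca1 included, had a gap at least that large, against a median gap of 0.39. Which of the 2 probe sets reads Clca1 was not tested, and the statements on Clca1 below are statements on the _r_at probe set unless said otherwise.

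Reg3g was highest in C57. The brighter probe set read 71.9 in ICR smoked and 127 in ICR control lungs, 333 in DBA smoked and 131 in DBA control lungs, and 661 in C57 smoked and 432 in C57 control lungs. Both C57 arrays were above all ICR and DBA arrays, and the ICR and DBA arrays overlapped once normalized. After normalization 51.2% of probe sets did not overlap in ICR against C57 and 52.5% did not in DBA against C57. The second probe set, with the suffix _f_at, was dimmer and did not pass the filter. It read 4.48 in ICR smoked and 16.5 in ICR control, 33.6 in DBA smoked and 25.7 in DBA control, and 85.6 in C57 smoked and 60.2 in C57 control lungs. C57 was again highest, and the suffix of this probe set marks probes that other members of a gene family may also bind.

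Pigr was lowest in ICR. It read 325 in ICR smoked and 317 in ICR control lungs, 1368 in DBA smoked and 1289 in DBA control lungs, and 916 in C57 smoked and 966 in C57 control lungs. In deposited intensity the 3 strains did not overlap, in the order ICR, C57, DBA. They did not overlap after normalization either, where separation between pairs of strains was common. There the arrays of the strains compared did not overlap for 51.2% of probe sets in ICR against C57, 47.9% in ICR against DBA and 52.5% in DBA against C57. The share for all 3 strains at once was not counted on either scale.

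Muc1 was bright in all lungs. It read 645 in ICR smoked and 1116 in ICR control lungs, 1835 in DBA smoked and 1633 in DBA control lungs, and 2260 in C57 smoked and 2772 in C57 control lungs. In deposited intensity the strains again did not overlap, in the order ICR, DBA, C57. The share of probe sets that separated so on this scale was not counted. The ICR arrays had the lowest medians, 25.9 and 52.2 in ICR smoked and ICR control, against 60.1 to 84.8 on the other arrays. After normalization ICR and DBA lay close, at 10.36 in ICR smoked and 10.44 in DBA smoked on the log2 scale. By deposited intensity Muc1 ranked between 133 and 317 and Pigr between 342 and 1650 among the probe sets of an array, control sets left out.

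**Figure D1:**
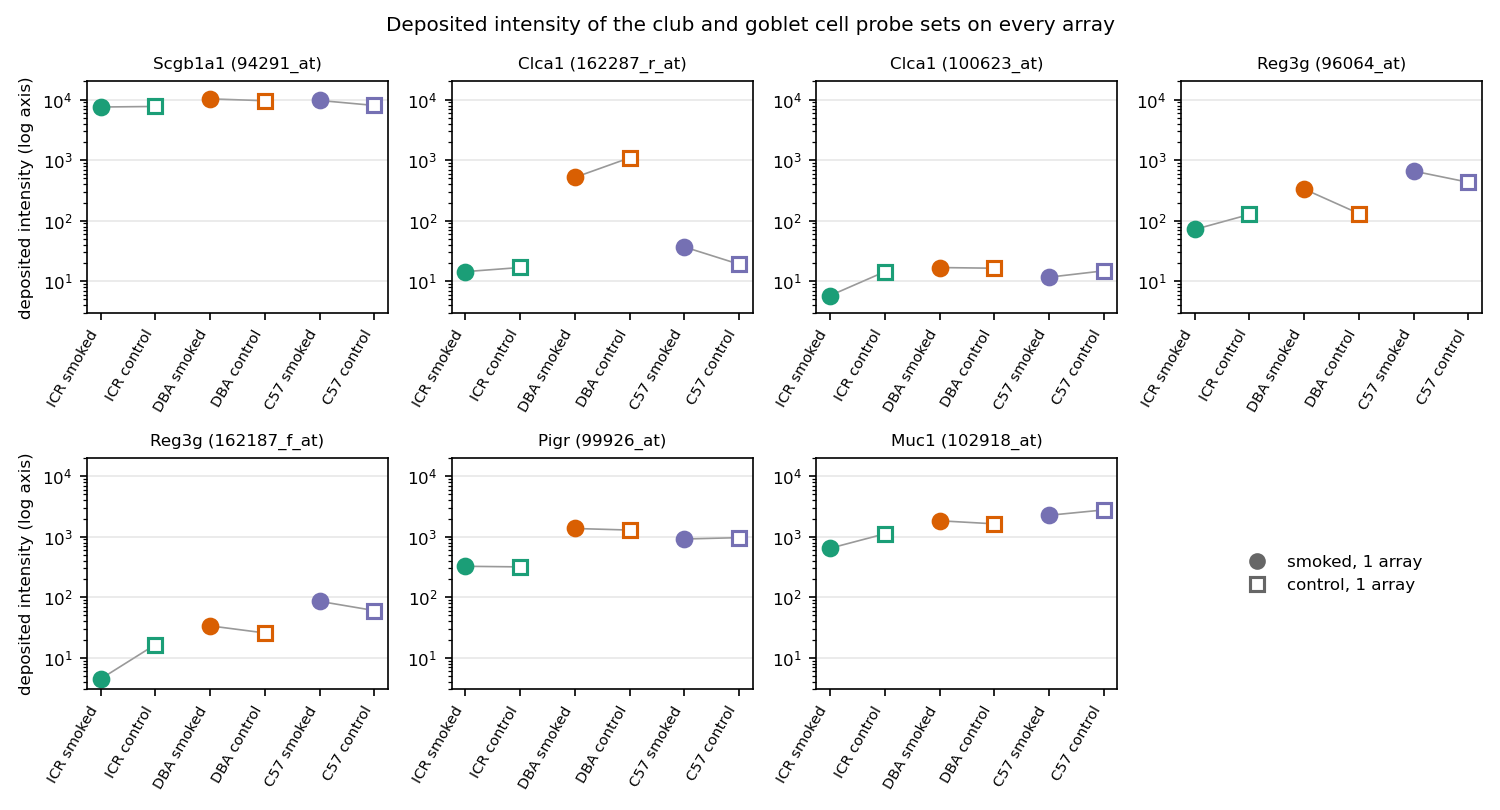
Deposited intensity (log axis) of the 7 member probe sets on the 6 arrays, smoked (filled circles) beside control (open squares) in each strain, with 1 array per point. Scgb1a1 lies between 7572 and 10324 throughout, the _r_at probe set of Clca1 is at 520 and 1095 in DBA and at most 36.9 elsewhere, and both Reg3g probe sets are highest in C57.

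The first comparison between strains set DBA against C57, with smoke exposure in the same model. Clca1 rose in DBA by a log2 difference of 4.17 (SE 0.47, 18.0-fold, adjusted p = 0.00341). Reg3g fell by 1.45 on the log2 scale (SE 0.27, adjusted p = 0.0315), so that C57 was 2.72-fold above DBA. These were 2 of the 5 member probe sets tested, where limma called 1.73% of 7453 probe sets. The count of members is a description only, because Clca1 passed the filter through its DBA arrays: its mean over the ICR and C57 arrays was 5.05 on the log2 scale, under the limit of 5.34. With no filter Clca1 was still called at an adjusted p of 0.0323, and Reg3g was not, at 0.0831.

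The other 3 members did not pass in DBA against C57. Muc1 had a difference of -0.55 (SE 0.20, adjusted p = 0.2995), Pigr of 0.43 (SE 0.28, adjusted p = 0.648) and Scgb1a1 of 0.0044 (SE 0.15, adjusted p = 0.994). Quantile normalization holds the brightest probe sets near a fixed value, so the small Scgb1a1 differences here and in the other comparisons do not bound a change. The dim Reg3g probe set, which was not tested, had a difference of -1.33, close to that of the tested one, and the dim Clca1 probe set had -0.07.

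Over the alternative settings tried, Clca1 kept its call in DBA against C57 in the 12 of 13 that tested it, with differences of 3.15 to 5.18. The stricter filter removed its probe set, so it was not tested there. Reg3g lost its call in 6 of 13. Among these were no scaling between arrays (adjusted p = 0.759) and leaving out DBA control (0.141), C57 smoked (0.0604) or C57 control (0.0922), and its difference stayed between -1.75 and -1.14.

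In ICR against C57, Reg3g fell by 1.58 on the log2 scale (SE 0.27, adjusted p = 0.0219), with C57 2.98-fold above ICR. It was the 1 member called of 5 tested, where 2.29% of all probe sets were called. The dim Reg3g probe set had a difference of -1.81, not tested. Muc1 had a difference of -0.72 (SE 0.20, adjusted p = 0.104) and Pigr of -0.70 (SE 0.28, adjusted p = 0.239). Scgb1a1 had 0.11 (SE 0.15, adjusted p = 0.741) and Clca1 -0.08 (SE 0.47, adjusted p = 0.952). The Reg3g call was lost in 3 of 13 alternatives: with no filter (adjusted p = 0.0689), without ICR smoked (0.0661) and without ICR control (0.0728).

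In ICR against DBA, Clca1 fell by 4.24 on the log2 scale (SE 0.47, adjusted p = 0.00359), with DBA 18.9-fold above ICR. The size of that fold rests on dim ICR readings and on the pseudocount: the difference was -4.61 with a pseudocount of 1 and -3.49 with 32. Clca1 entered the test through its DBA arrays here too, and with no filter its adjusted p was 0.0391. It was the 1 member called of 5, where 1.17% of all probe sets were called. Pigr had the next largest difference, -1.13 (SE 0.28, adjusted p = 0.111), and did not pass. Muc1 had -0.17 (SE 0.20, adjusted p = 0.716), Reg3g -0.13 (SE 0.27, adjusted p = 0.852) and Scgb1a1 0.10 (SE 0.15, adjusted p = 0.772). The Clca1 call was lost without ICR smoked (adjusted p = 0.0913) and without ICR control (0.128), at differences of -4.69 and -3.80. The comparisons share arrays: the DBA arrays stand behind both Clca1 differences and the C57 arrays behind both Reg3g differences.

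Before normalization both Pigr and Muc1 lay lower in ICR than in either other strain, and without scaling between arrays Pigr passed in ICR against DBA (-2.02, adjusted p = 0.0163). With the usual scaling Pigr also passed there without DBA smoked (-1.47, adjusted p = 0.00681) and, at an unchanged difference, without C57 smoked (0.0177) or C57 control (0.0174), and it did not pass in the remaining 9 of 13 alternatives. Without scaling the median over all probe sets tested was itself -0.74 in that comparison. With arrays scaled to a common median, Pigr had -1.12 and Muc1 -0.12 in ICR against DBA, and Muc1 passed in ICR against C57 (-0.95, adjusted p = 0.0490).

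**Figure D2:**
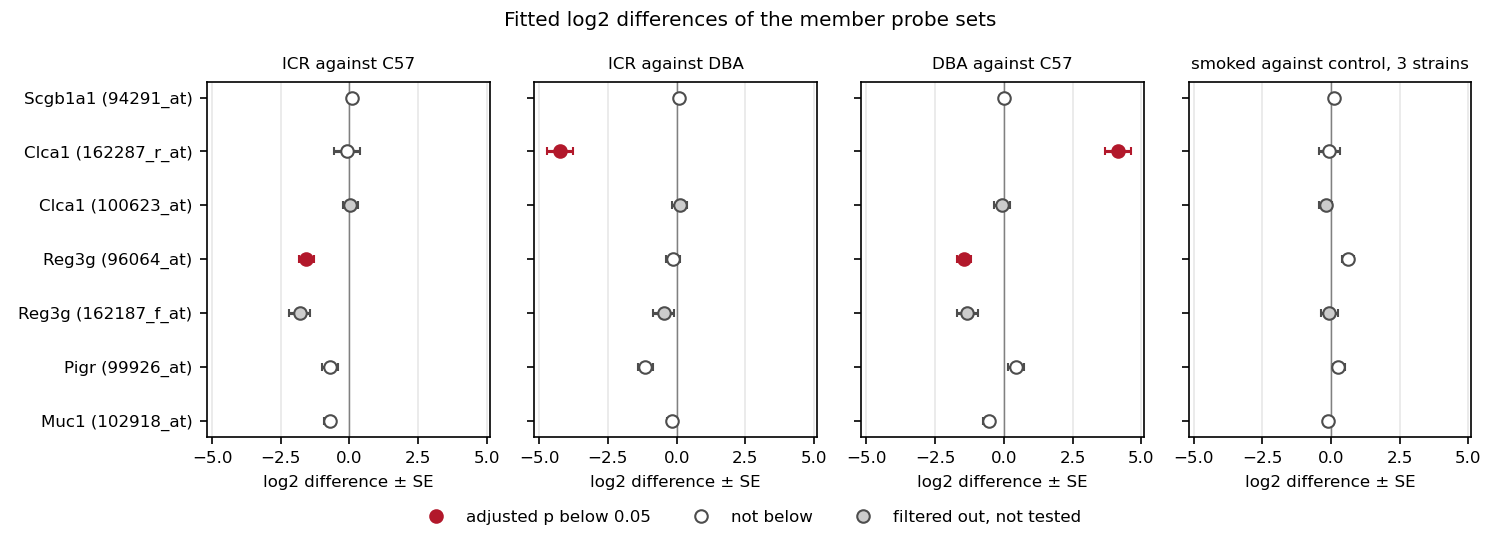
Fitted log2 differences (points) with standard errors (bars) of the 7 member probe sets in 4 comparisons: ICR against C57, ICR against DBA, DBA against C57, and smoked against control over the 3 strains. Filled red points passed an adjusted p of 0.05: Reg3g in both comparisons with C57 and the _r_at probe set of Clca1 in both comparisons with DBA.

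The next comparison asked whether smoke changed the members in all 3 strains. No member was called, where limma called 0.0403% of probe sets, 3 of 7453, and 122 had an unadjusted p below 0.05. Reg3g was the 1 tested member with the same sign in every strain: 0.18 in ICR, 1.04 in DBA and 0.66 in C57. Its fitted difference was 0.62 (SE 0.22), with an unadjusted p of 0.0191 and an adjusted p of 0.99995, and 9.86% of all probe sets were likewise higher in all 3 strains. The deposited ratio of smoked to control was 0.565 in ICR, 2.54 in DBA and 1.53 in C57, so the ICR value turns its sign with scaling. The dim Reg3g probe set had -0.64 in ICR, 0.07 in DBA and 0.41 in C57.

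Scgb1a1 had smoke differences of 0 in ICR, 0.21 in DBA and 0.07 in C57. Its fitted difference was 0.09 (SE 0.12), and it was 0.30 with arrays scaled to a common median. In ICR its deposited ratio of smoked to control was 0.979, and it was 1.97 once each reading was divided by the median of its array, so no limit on its response is given. Pigr had a fitted difference of 0.27 (SE 0.23), made of 0.95 in ICR, -0.19 in DBA and 0.04 in C57. In ICR the deposited ratio of smoked to control for Pigr was 1.02, and it was 2.06 once each reading was divided by the median of its array. Muc1 had -0.10 (SE 0.16), with 0.12 in ICR, -0.06 in DBA and -0.36 in C57.

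Clca1 had a fitted smoke difference of -0.06 (SE 0.38) made of values of opposite sign. Smoked minus control was -1.40 in DBA, where the probe set was bright, against 0.54 in ICR and 0.70 in C57, where it was dim. The test of DBA's response against that of the other strains gave -2.02 (SE 0.57, adjusted p = 0.0621), which did not pass. In that test 0.711% of probe sets were called, and no member. It passed in 1 of 6 alternatives, a pseudocount of 32 in place of 8.05 (-1.71, adjusted p = 0.0217). In the other 5 the adjusted p ran up to 0.875, which it reached without scaling, and the differences of the 6 lay between -2.22 and -1.35.

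Within single strains, with 1 array a group and no test, 2 of the 5 filtered members differed at least 2-fold in DBA, where 3.05% of probe sets did. Clca1 was lower on the DBA smoked array, and Reg3g was higher at 2.05-fold. The count is a description only, because Clca1 passed the filter through its DBA arrays. In ICR and in C57 no tested member reached 2-fold, against 6.48% and 1.21% of probe sets. The largest member difference in ICR was 1.94-fold for Pigr, and in C57 it was 1.63-fold for Clca1.

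No member's smoke response was called in the tests of C57 or of ICR against the other strains. In C57, where 0.134% of probe sets were called, the largest value was 1.13 for Clca1 (SE 0.68, adjusted p = 0.9997). In ICR, Pigr had 1.03 (SE 0.27, adjusted p = 0.302) and Reg3g -0.67 (SE 0.33, adjusted p = 0.405). There limma called 0% of probe sets, though 1067 had an unadjusted p below 0.05. The responses rest on 1 pair against 2 pairs and 1 residual degree of freedom.

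**Figure D3:**
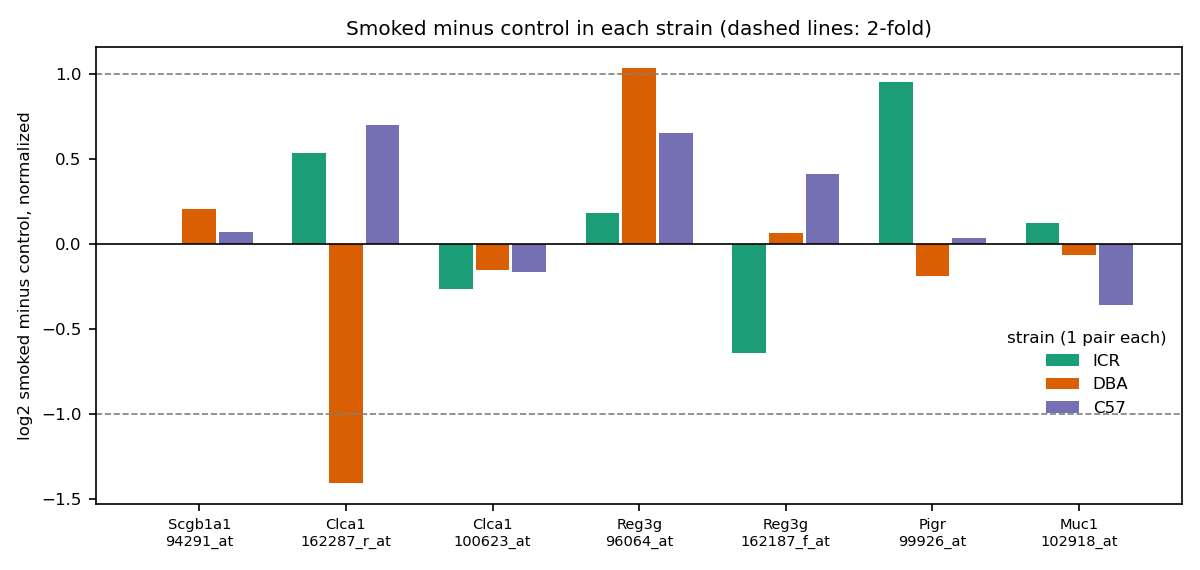
Smoked minus control (log2, normalized) of each member probe set in ICR, DBA and C57, with 1 pair of arrays per bar and dashed lines at 2-fold. The 3 bars of the brighter Reg3g probe set point up, at 0.18, 1.04 and 0.66, while the _r_at probe set of Clca1 is at -1.40 in DBA and above 0 in ICR and C57.

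The members did not move as 1 group over the arrays. As a description over 6 arrays of normalized values, Reg3g followed Muc1 (Pearson r = 0.74) and its own second probe set (r = 0.87), Clca1 followed Pigr (r = 0.73), and Scgb1a1 had r of 0.01 with Reg3g and -0.55 with Pigr. The 2 Clca1 probe sets had r = -0.40. The points share strains, with 2 arrays for each of 3 strains, and no p is given.

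The genes most like each member over the 6 arrays were named by the highest Pearson r. For Clca1 these were Tagln2 (r = 0.998) and Plxna1 (0.992), and for Reg3g Nedd4l (0.975) and Trappc12 (0.974). For Pigr they were Tef (0.993) and Pcbp4 (0.990), for Muc1 Gys1 (0.993) and Pde4dip (0.990), and for Scgb1a1 Emg1 (0.977) and Ddc (0.973). Between 0.460% (Scgb1a1) and 2.82% (Muc1) of the probe sets compared had r above 0.9 with a member.

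Other genes of the same cells and pathways were read from lists. Over 7 lists of secretory cell products, transcription factors, cytokine pathways and Muc1 partners, 94 genes were measured and 67 tested. None was called for smoke. In DBA against C57, 1 rose and 1 fell, in ICR against C57, 2 rose and 4 fell, and in ICR against DBA, 1 rose and 3 fell. The calls made up 2.99%, 8.96% and 5.97% of the genes tested, beside 1.73%, 2.29% and 1.17% of all probe sets. These shares are a description only, because the lists were chosen with earlier results of these data known. The calls in both comparisons with ICR also include Itm2a, which passed the filter through its ICR arrays.

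Of the other club cell genes, Cyp2f2 and Gsto1 fell in ICR. Cyp2f2, which activates inhaled xenobiotics in club cells, read 1274 in ICR smoked and 2245 in ICR control, 6202 in DBA smoked and 4784 in DBA control, and 5145 in C57 smoked and 4829 in C57 control lungs. Both ICR arrays were below the 4 others, where arrays that did not overlap were common (51.2% of probe sets against C57 and 47.9% against DBA, normalized). It fell by 0.87 against C57 (SE 0.17, adjusted p = 0.0380) and by 0.92 against DBA (SE 0.17, adjusted p = 0.0453), and each call was lost in 6 of 13 alternatives. Against C57 these included leaving out ICR smoked (adjusted p = 0.0739), ICR control (0.136), C57 smoked (0.0613) or C57 control (0.278), and against DBA leaving out ICR smoked (0.110), ICR control (0.130) or DBA smoked (0.156). Gsto1, a glutathione transferase, was highest in C57: it fell in ICR by 1.37 (SE 0.22, adjusted p = 0.0185) and in DBA by 1.31 (SE 0.22, adjusted p = 0.0201). The ICR call was lost in 4 of 13 alternatives, among them without ICR smoked (adjusted p = 0.0653), ICR control (0.120) or C57 control (0.104). The DBA call was lost in 5 of 13, among them without DBA control (0.145), without C57 control (0.137) and with no scaling (0.686).

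Itm2a, a membrane protein on the club cell list, rose in ICR by 2.20 against C57 (SE 0.29, adjusted p = 0.00720) and by 2.13 against DBA (SE 0.29, adjusted p = 0.0120). Without ICR control both calls were lost (adjusted p = 0.113 and 0.114), and without ICR smoked the call against DBA was lost (0.0713). In all, the call against C57 was lost in 3 and that against DBA in 4 of 12 alternatives. Itm2a passed the filter through its ICR arrays: its mean over the DBA and C57 arrays was 5.29, under the limit of 5.34. Of the 11 measured genes on that list 10 were tested, and the list median was -0.29 in ICR against C57, -0.06 in ICR against DBA and -0.04 in DBA against C57. The medians over all measured genes were -0.0035, 0.02 and -0.03. The rest of the list, with Aldh1a1, an aldehyde dehydrogenase, at 0.10 in ICR against C57, did not pass.

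Bpifb1, an airway surface protein of the same family as Bpifa1, fell in ICR against both other strains. It read 117 in ICR smoked and 155 in ICR control lungs, 1924 in DBA smoked and 1286 in DBA control lungs, and 1286 in C57 smoked and 1262 in C57 control lungs. The ICR arrays were far below all others, where arrays that did not overlap were common (51.2% of probe sets against C57 and 47.9% against DBA, normalized). Its log2 difference was -2.34 against C57 (SE 0.22, adjusted p = 0.00141) and -2.59 against DBA (SE 0.22, adjusted p = 0.000806). It was called in 13 of 13 alternatives in both comparisons.

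Among mucins, goblet and gland products, 25 genes were measured and 15 tested. Itln1, an intelectin of goblet cells, read 44.9 in ICR smoked and 59.3 in ICR control, 216.7 in DBA smoked and 365 in DBA control lungs, and 40.8 in both C57 lungs. It rose in DBA against C57 by 2.27 (SE 0.37, adjusted p = 0.0174), a call lost in 1 of 13 alternatives, with no filter (0.0835). Its difference in ICR against DBA, -1.37, did not pass (adjusted p = 0.132). Like the _r_at probe set of Clca1, it was higher on both DBA arrays than on all others. After normalization 52.5% of probe sets did not overlap in DBA against C57 and 47.9% did not in ICR against DBA. Tff2, a trefoil peptide that stabilises mucus, fell in ICR against C57 (-1.51, SE 0.30, adjusted p = 0.0393), a call lost in 4 of 12 alternatives, among them without ICR smoked (0.0518), ICR control (0.183) or C57 control (0.307). The list medians were -0.14 in ICR against C57, -0.10 in ICR against DBA and -0.03 in DBA against C57.

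Of the transcription factors of the secretory epithelium, 15 were measured and 12 tested, and none was called in any comparison of strains. Elf3, an epithelial factor, had -1.02 and Cebpa, a factor of club and alveolar cells, -0.86 in ICR against C57. Hes1, a Notch target, had -0.89 and Elf3 -0.73 in ICR against DBA. Elf5 had -1.05 and Gata6 0.88 in DBA against C57.

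The cytokine pathways that regulate Clca1 and Reg3g gave 1 call. Il13, the interleukin that induces Clca1, read at most 11.3 on any array and did not pass the filter. On the type 2 cytokine list 12 genes were measured and 5 tested, none called between strains. Chil3, a chitinase-like protein, had 0.80 in ICR against C57 and 0.94 in ICR against DBA. Il4, Il9, Ccl11 and Arg1 were dim, did not pass the filter and were not tested, so their differences are not given.

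On the IL-6, IL-17 and IL-22 list 12 genes were measured and 9 tested. Il1b, interleukin 1 beta, rose in ICR against C57 by 1.73 (SE 0.27, adjusted p = 0.0163), a call lost in 5 of 12 alternatives, among them without ICR smoked (0.0647), ICR control (0.124) or C57 control (0.119). In ICR against DBA it had 1.15, and in DBA against C57 Il6ra, the interleukin 6 receptor, had 0.85 and Il1b 0.59, none of which passed.

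The partners of Pigr and Muc1 gave 1 call. All 8 genes measured of the polymeric immunoglobulin list were tested and none was called. Igha, the immunoglobulin A heavy chain carried by Pigr, had 1.21 and Jchain, which links its units, 0.92 in ICR against C57. They had 0.88 and 0.60 in ICR against DBA, and Ighm had -0.66 and Cd79b -0.56 in DBA against C57. Among the Egf receptor and Muc1 partners, 11 were measured and 8 tested. Grb2, an adaptor that binds the Muc1 tail, fell in ICR against DBA (-1.47, SE 0.28, adjusted p = 0.0496), a call lost in 7 of 13 alternatives, among them without ICR smoked (0.0711), ICR control (0.170) or DBA control (0.0754), and had -1.15 in ICR against C57. Src had 1.22 and Egfr 1.11 in DBA against C57, neither of which passed.

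**Figure D4:**
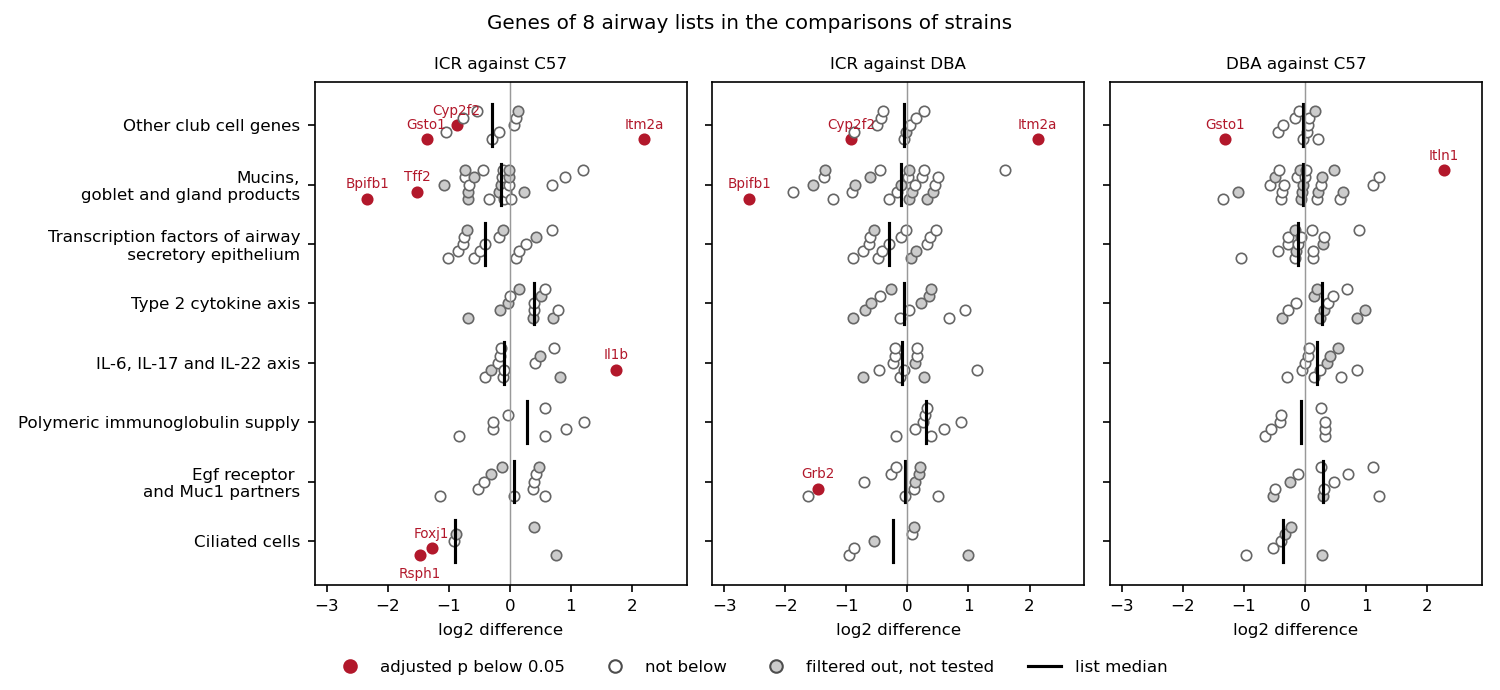
Fitted log2 differences of the measured genes on 8 airway lists in ICR against C57, ICR against DBA and DBA against C57, with 1 point per gene and the list median as a vertical line. Red points passed an adjusted p of 0.05, and grey points were filtered out and not tested. Bpifb1 is at -2.34 and -2.59 in the comparisons with ICR, and Itln1 is at 2.27 in DBA against C57.

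No gene on these lists was called for smoke. Those of 1 sign in all 3 strains included Selenbp1, a selenium-binding protein of club cells, at 0.51, Slpi, a secreted protease inhibitor, at -0.80, and Bpifb1 at 0.32. The transcription factors Klf5 and Cebpd had 0.22 and -0.21. Alox15, a lipoxygenase, had -0.67 and Il13ra1 -0.32, Il1b had -0.79 and Nfkbiz -0.21, and Egfr had -0.14, while no polymeric immunoglobulin gene had 1 sign throughout. The list medians for smoke lay between -0.21 (polymeric immunoglobulin) and 0.08 (other club cell genes), beside 0.0020 over all measured genes.

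Markers of other cells differed between these arrays beside the members. Of 6 ciliated cell genes measured, 3 were tested. In ICR against C57, Foxj1, the master regulator of cilia, fell by 1.28 (SE 0.27, adjusted p = 0.0494) and Rsph1, a radial spoke protein, fell by 1.47 (SE 0.22, adjusted p = 0.0127). Both calls were lost without ICR smoked (adjusted p = 0.0524 for each) and without ICR control (0.217 and 0.0977), and that of Foxj1 also without C57 control (0.423). In all, Foxj1 lost its call in 5 of 13 alternatives and Rsph1 in 2. Summed intensities here and below are deposited values, with no scaling between arrays. Those of this list were 233 and 418 in ICR smoked and ICR control, and 1119 and 920 in DBA smoked and DBA control. In C57 smoked and C57 control they were 1184 and 1444. The normalized log2 means of the list were closer: 6.05 and 5.86 in ICR smoked and ICR control, and 6.23 and 6.09 in DBA smoked and DBA control. In C57 smoked and C57 control they were 6.41 and 6.63. No ciliated gene was called in ICR against DBA. Ciliated and club cells share the airway wall, and the part of airway content in the low Bpifb1 and Cyp2f2 values of ICR was not tested. Nor was its part in the Reg3g difference between ICR and C57, where DBA was near ICR.

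Skeletal muscle genes were highest in C57, as Reg3g was. Of 11 measured, 8 were tested, and 5 fell both in ICR against C57 and in DBA against C57, among them Acta1, skeletal actin, by 6.10 in ICR against C57 and by 3.84 in DBA against C57. Acta1 also fell by 2.26 in ICR against DBA (adjusted p = 0.0295), a call lost in 6 of 13 alternatives, among them without ICR smoked (0.110) or ICR control (0.223). The summed intensity was 227 and 336 in ICR smoked and ICR control, 703 and 1249 in DBA smoked and DBA control, and 4564 and 6412 in C57 smoked and C57 control. The basal cell and stratified epithelium list also had its highest sums in C57, largely through the keratins Krt4 and Krt13. It summed to 206 to 663 on the ICR and DBA arrays, against 1596 and 803 in C57 smoked and C57 control. On those C57 arrays Krt4 read 835 and 400 and Krt13 read 413 and 160, and every other gene of the list read lower. The normalized log2 means of the list were closer, at 5.67 and 5.23 in C57 smoked and C57 control and 4.62 to 5.08 on the other arrays. Krt13, a keratin of stratified epithelium, fell in ICR against C57 by 3.45 (adjusted p = 0.0157), and 4 of the 11 measured genes were tested. Its call was lost in 3 of 12 alternatives, among them without ICR smoked (0.0793) or ICR control (0.211). It passed the filter through its C57 arrays, with a mean of 4.89 over the ICR and DBA arrays, under the limit of 5.34, and the same held for the muscle genes Myh1 (4.06) and Tnnt3 (5.11). Krt5, the defining basal cell keratin, read at most 14.5 on any array. The part of these tissues in the Reg3g difference was not tested.

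The DBA arrays carried 2 other signals, each strongest on 1 array. Neutrophil genes summed to 18865 on DBA control, against 1213 to 3242 on the other arrays. Liver genes summed to 4235 on DBA smoked, against 83.6 to 524 elsewhere, and 1 of them, Serpina1b, rose in DBA against C57 by 3.65 (adjusted p = 0.00997), a call lost in 3 of 13 alternatives, among them without ICR smoked (0.0781) or ICR control (0.0760). Serpina1b was high on both DBA arrays, at 1363 in DBA smoked and 428 in DBA control, against 22.6 to 110 on the other arrays. Clca1 was also high on both DBA arrays, with its higher reading on the array with the neutrophil signal and its lower reading on the array with the liver signal. Without DBA control its difference from C57 was 3.15, and without DBA smoked 5.18, both called.

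The remaining lists were those of alveolar cells and macrophages. Of the alveolar type II genes 6 were measured and 5 tested, and Napsa, a surfactant protease, fell in DBA against C57 by 1.66 (adjusted p = 0.0202), a call lost in 3 of 13 alternatives at adjusted p up to 0.0926. Sftpb, surfactant protein B, fell in ICR against C57 (-0.997, adjusted p = 0.0348), a call lost in 5 of 13, among them without ICR smoked (0.0684), ICR control (0.0565) or C57 smoked (0.134). All 5 alveolar type I genes measured were tested, and Emp2, a membrane protein, rose against C57 by 1.15 in ICR (adjusted p = 0.0238) and by 1.93 in DBA (adjusted p = 0.00248). The ICR call was lost in 7 of 13 alternatives, among them without ICR smoked (0.0625), ICR control (0.129) or C57 control (0.173), and without scaling, where its value was 0.35. Of 8 macrophage genes measured, 5 were tested and none was called between strains, with summed intensities of 983 to 3036. For smoke 0 genes were called on any of these lists.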

How the data were processed

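Total lung RNA was labelled as biotin cRNA and hybridised, per the labels' protocols. The deposited values are linear intensity, 1 per probe set and array, between 0.0305 and 10579; the authors' summary method and scaling are stated in none of the sources used here. Values were taken as log2(intensity + 8.05), where the constant is the 20th percentile of the deposited values. They were quantile normalized over 12488 probe sets, 66 control sets were dropped, and the 7453 whose mean exceeded the 40th percentile were tested. limma 3.58.1 (R 4.3.3; lmFit and trended eBayes) fitted strain plus smoke for the smoke effect (3 pairs, 2 residual degrees of freedom) and the comparisons of strains, and an extra smoke term for each strain's response. All tests are 2-sided; p-values were adjusted by Benjamini-Hochberg over the 7453, and a call means an adjusted p below 0.05. The methods were tested on simulated data.

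In the annotation 10855 probe sets had 1 symbol, 396 several and 1237 none. A gene other than a member is represented by its brightest probe set with 1 symbol. The members and 15 gene lists were chosen with earlier results of these data known. Named genes are the members, the list genes called (at most 4 in each direction) and, for airway lists without a call, the 2 largest differences, for smoke among genes of 1 sign in all strains; for the lists of other cell types only called genes are named. Strain differences of cytokine genes that did not pass the filter are left out. Likeness used the 2 highest Pearson r for each member. Promoters and gene positions come from RefSeq (GRCm38.p6). Alternatives were pseudocounts of 1 and 32, no filter or one at the 60th percentile, no scaling or a common median, no mean trend, no strain block, and each pair or array left out. The number of arrays limits precision.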

Additional observations from a re-analysis of the deposited data

Results flagged for a closer look

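For 2 genes of the 7 airway lists, smoked minus control was unlike between strains in a test of that difference (1 strain's pair against both other pairs). Lcn2, an antibacterial lipocalin of epithelium and neutrophils, read 83.7 in ICR smoked and 232 in ICR control, 293 in DBA smoked and 1404 in DBA control, and 424 in C57 smoked and 162 in C57 control lungs. Its response in C57 differed by 2.87 (adjusted p = 0.0239) and in DBA by -3.01 (adjusted p = 3.15e-05). Chil3, a chitinase-like protein of macrophages and type 2 inflammation, read 675 in ICR smoked and 1576 in ICR control, 447 in DBA smoked and 2262 in DBA control, and 1663 in C57 smoked and 660 in C57 control lungs. Its response in C57 differed by 2.86 (adjusted p = 0.00923) and in DBA by -3.15 (adjusted p = 3.19e-07).

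Both C57 calls were lost in 4 of 7 alternatives and both DBA calls in 2 of 7, with no filter and with no scaling among them. A second probe set of Lcn2, with the suffix _r_at, read 26.7 to 53.6 on all arrays and showed no such pattern. Both genes were bright on the DBA control array, which also carried the neutrophil signal, and the part of that signal was not tested.

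The lists of other cell types held further genes whose response differed by the same test. In DBA the neutrophil genes S100a8 (-4.71), S100a9 (-4.11), Ngp (-6.97), Camp (-5.21) and Mmp9 (-3.52) were lower, as was Krt4, a keratin of stratified epithelium (-2.53), and the liver genes Alb (6.62), Mup3 (6.49) and Serpina1b (2.05) were higher. In C57 the smoke response of Alb was lower (-4.79), a call lost in 4 of 6 alternatives. Among the DBA calls Serpina1b lost its call in 5 of 7 alternatives, and Ngp and Mup3 passed the filter through their DBA arrays.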

How the results depend on the processing

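The smoke effect was fitted on smoked and control arrays paired within strain, and leaving out the strain term gave 0 calls. By replicate number, no paired analysis was possible because every sample carries the number 1. The causes of the changes below were not tested.

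Over all probe sets the smoke count of 3 became 1 with no filter, with a common median and with no mean trend, and ranged from 0 to 11 with a pair left out. In DBA against C57 the count of 129 became 66 with no filter and 85 with no scaling (64 higher, 21 lower), and ranged from 102 to 298 with an array left out. A common median gave 54 higher and 85 lower there. In ICR against C57 the count of 171 became 44 with no filter and ranged from 32 to 517 with an array left out, with 7 higher and 138 lower without scaling and 50 higher and 175 lower with a common median. In ICR against DBA the count of 87 became 38 with no filter and 261 with no scaling (4 higher, 257 lower), and ranged from 12 to 220 with an array left out. The C57 response count of 10 became 4 with the stricter filter and 0 with no filter, no scaling, a common median or no mean trend. The DBA response count of 53 became 27 with a pseudocount of 1, 9 with no filter, 25 with the stricter filter, 7 with no scaling and 29 with a common median. The ICR response count of 0 became 1787 with no scaling (7 higher, 1780 lower), where the median of all probe sets was -0.77.

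The member count of 2 in DBA against C57 became 1 with no filter, the stricter filter, no scaling or no mean trend, and was 1 to 2 with an array left out. In ICR against C57 the count of 1 became 0 with no filter and 2 with a common median, and was 0 to 1 with an array left out. In ICR against DBA the count of 1 became 0 with the stricter filter, which removes Clca1, and 2 with no scaling, and was 0 to 2 with an array left out. The DBA response count of 0 became 1 with a pseudocount of 32, and the ICR response count of 0 became 1 with no scaling, through Reg3g (-1.71, adjusted p = 0.0259).

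Small member differences changed sign. For smoke, Clca1 had 0.054 with a pseudocount of 1, 0.020 with a common median and -0.43 to 0.62 with a pair left out, Pigr had -0.075 to 0.49 and Muc1 -0.21 to 0.029. Scgb1a1 in DBA against C57 had -0.13 with a common median and -0.081 to 0.089 with an array left out, and without scaling it had -0.21 in ICR against C57 and -0.38 in ICR against DBA. Clca1 in ICR against C57 had 0.033 with a common median and -0.64 to 0.49 with an array left out. Reg3g in ICR against DBA had -0.46 to 0.20 with an array left out. Among responses without scaling, Scgb1a1 had 0.24 in C57 and -0.020 in DBA, Muc1 0.014 in C57 and -0.72 in ICR, and Pigr 0.11 in DBA. With a common median Scgb1a1 had -0.70 in DBA and 0.75 in ICR. Clca1 was dim outside DBA, which limits how well its differences there are known.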

Other observations

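The array also carries relatives of the members. Scgb1b2, a secretoglobin, read 41.0 in ICR smoked and 57.3 in ICR control, 114 in DBA smoked and 77.5 in DBA control, and 64.6 in C57 smoked and 86.1 in C57 control lungs, with differences between strains of 0.03 to 0.11. Clca3a1, a relative of Clca1, read at most 45.1 and had -0.06 in DBA against C57, without the DBA level seen for the _r_at probe set of Clca1. The Reg3g relatives Reg3a and Reg3b read at most 12.1 and 21.6 and did not pass the filter. Bpifa2, a relative of Bpifa1, read at most 22.9.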
